A study of Mus musculus with 7 samples.

Results

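The A20, TRAF and cIAP ubiquitin regulators are 10 genes whose proteins attach, cut or read ubiquitin chains in NF-kB signalling, or hold the enzymes in place. They were chosen by gene symbol, though with earlier results of these data known: Tnfaip3, Tnip1, Tnip2, Cyld, Birc2, Birc3, Traf2, Traf3, Traf4 and Traf5. All 10 were found among the 23329 gene symbols of the count table, and all 10 passed the filter on low counts. Birc3 passed it through its IL1B libraries alone, so it could not have been called lower.

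RNA was measured in Beta-TC6 cells, a line of insulin-secreting cells from a mouse pancreatic beta-cell tumour. The IL1B group held 3 libraries of cells treated with IL1B, the inflammatory cytokine interleukin-1 beta, and the vehicle group held 4 libraries of cells given vehicle. Every sample is labelled wild type (WT), and all were synchronised with forskolin, a drug that raises cAMP, given at 10 µM for 1 h. The dose and duration of IL1B and the time of harvest are not stated in the sources used here. Nor do the labels tell if replicates came from separate cultures, so p-values reflect the spread between libraries, possibly technical in origin. All cells are of 1 tumour line, so the values describe that line.

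Ubiquitin is a small protein that cells join to other proteins singly or in chains, and in NF-kB signalling the chains act as scaffolds. When the IL-1 or TNF receptor is engaged, TRAF adaptors and cIAP ligases build chains that gather the kinases which release NF-kB. A20 and CYLD take such chains apart or block their use, and the ABIN proteins bring A20 to them. In resting cells TRAF3, TRAF2 and the cIAPs also keep NIK, the kinase that starts the noncanonical NF-kB pathway, at a low level by marking it for degradation. In many cell types the A20 and cIAP2 genes are themselves NF-kB targets, which makes them part of a feedback loop.

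The promoters of 5 regulators are shown because 3 of these genes rose and hold a match to the kB consensus, Birc3 had the largest increase and holds none, and Cyld holds one and did not pass the test. Each window runs 5′ to 3′ on the strand of the gene, from 250 bases before to 50 bases after the RefSeq start (GRCm38.p6), and capitals mark matches to the NF-kB consensus (kB consensus) on either strand.
Tnfaip3 promoter, chr10:19015361-19015660, minus strand: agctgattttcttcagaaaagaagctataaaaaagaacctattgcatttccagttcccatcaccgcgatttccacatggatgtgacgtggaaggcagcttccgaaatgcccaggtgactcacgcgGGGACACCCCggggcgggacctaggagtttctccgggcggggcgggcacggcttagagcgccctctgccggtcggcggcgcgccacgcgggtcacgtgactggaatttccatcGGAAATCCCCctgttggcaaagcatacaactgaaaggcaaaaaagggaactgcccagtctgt
Tnip1 promoter, chr11:54962891-54963190, minus strand: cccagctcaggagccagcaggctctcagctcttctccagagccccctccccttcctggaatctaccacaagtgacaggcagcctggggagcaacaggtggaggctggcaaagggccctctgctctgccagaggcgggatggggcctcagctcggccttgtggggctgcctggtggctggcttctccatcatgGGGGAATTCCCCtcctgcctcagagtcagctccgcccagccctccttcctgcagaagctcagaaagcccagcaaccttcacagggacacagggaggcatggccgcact
Traf3 promoter, chr12:111166120-111166419, plus strand: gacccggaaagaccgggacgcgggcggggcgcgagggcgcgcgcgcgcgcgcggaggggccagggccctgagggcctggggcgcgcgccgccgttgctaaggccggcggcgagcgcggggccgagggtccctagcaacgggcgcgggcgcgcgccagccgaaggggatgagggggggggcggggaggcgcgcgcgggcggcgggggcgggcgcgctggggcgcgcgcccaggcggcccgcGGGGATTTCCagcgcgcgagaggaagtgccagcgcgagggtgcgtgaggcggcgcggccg
Birc3 promoter, chr9:7873121-7873420, minus strand: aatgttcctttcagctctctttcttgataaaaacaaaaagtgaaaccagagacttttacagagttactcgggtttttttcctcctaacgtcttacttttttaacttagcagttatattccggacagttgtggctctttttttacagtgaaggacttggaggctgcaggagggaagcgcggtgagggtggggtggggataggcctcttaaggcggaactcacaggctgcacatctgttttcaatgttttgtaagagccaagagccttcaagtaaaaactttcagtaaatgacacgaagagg
Cyld promoter, chr8:88696778-88697077, plus strand: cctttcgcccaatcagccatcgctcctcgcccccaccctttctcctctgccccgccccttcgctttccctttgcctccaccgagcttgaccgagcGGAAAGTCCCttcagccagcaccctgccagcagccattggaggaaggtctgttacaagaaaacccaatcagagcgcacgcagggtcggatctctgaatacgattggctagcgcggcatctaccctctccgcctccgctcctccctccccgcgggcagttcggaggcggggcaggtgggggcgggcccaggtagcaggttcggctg

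RefSeq windows were found for all 10 genes, 12 in all since Tnfaip3 and Birc2 have a second start. The kB consensus, searched on both strands, was matched in 1 window each of 4 of the 10 genes. That is 4 of the 12 windows, and it was matched in 8.46% of the 32851 promoter windows of the mouse table. The Tnfaip3 window lies almost wholly inside the gene span annotated in GENCODE M21, which begins at 19015657 on the minus strand. Positions in that window thus hold for the RefSeq start only. Within it the kB consensus was matched at 2 places. The one nearest the start reads GGGGATTTCC on the opposite strand, at positions -12 to -3 counted from a start of 0, and the same 10 letters stand in the Traf3 window at positions -10 to -1. This exact run was present in 32 windows of the table (0.0974%), those of Tnfaip3 and Traf3 included. It was looked up because both genes hold it, so its rarity does not measure how unlikely the sharing is. In the Tnip1 window overlapping matches cover the palindrome GGGGAATTCCCC, and in the Cyld window the match reads GGGACTTTCC on the opposite strand. The windows of the other 6 genes, among them Birc3, Birc2 and Traf4, which also rose, hold no match. This says nothing of sites outside those windows. In human cells the A20 promoter is known for a pair of NF-kB sites close to its start. The 2 matches in the mouse Tnfaip3 window were not aligned with those human sites, so they are not equated with that pair. A match is a run of letters, and binding was not measured here.

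IL1B libraries held 6007723 to 6969745 counts and vehicle libraries 5335607 to 7513934. The 9 pairs of replicates gave chi-square values of 1.52 to 4.88 per degree of freedom, above sampling noise in each pair, and each library was kept as a replicate. The second library of each group stood apart from the others of that group: pairs with it gave 2.87 and 4.20 among IL1B libraries and 3.82 to 4.88 among vehicle libraries, against 1.69 for the other IL1B pair and 1.52 to 1.60 for the other vehicle pairs. Across genes the deviation of the second vehicle library from its group followed exon length (Spearman rho -0.50), unlike that of the others: 0.19 to 0.27 for the other vehicle libraries and -0.0087 to 0.0013 for the IL1B libraries (genes are not independent replicates). Beta-cell markers were abundant, with a summed level over 10 genes of 39370.1 to 40581 CPM in IL1B libraries and 35680 to 41428 CPM in vehicle libraries. Of these, Pdx1 and Mafa fell (edgeR adjusted p = 3.0e-07 and 7.01e-06). The summed level of 7 leukocyte markers was 3.71 to 5.10 CPM in IL1B libraries and 3.34 to 4.85 CPM in vehicle libraries, and that of 6 stromal and endothelial markers 5.54 to 7.81 CPM with IL1B and 4.46 to 8.46 CPM with vehicle. The 5 markers of other islet endocrine cells summed to 530.9 to 584.8 CPM with IL1B and 568 to 629 CPM with vehicle. In 3 of these low markers, all below the filter, the groups did not overlap: Pecam1 (endothelial) had 41 counts over the IL1B libraries and 17 over the vehicle libraries, Itgam (leukocyte) 5 and 0, and Ppy (islet PP cells) 4 and 33. Among all genes tested, every IL1B library lay above every vehicle library in 12.1% and below in 8.83%. No such share was taken for genes below the filter, so these 3 are given as counts only. The part of the cell type markers in the results below was not tested. In bulk RNA such as this, fewer cells of a type and less RNA per cell cannot be told apart.

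Levels are TMM-scaled CPM, counts per 1e6 that fell in tested genes, and differences are log2 fold changes of IL1B over vehicle from edgeR's quasi-likelihood test, called at a Benjamini-Hochberg adjusted p under 0.05 over 12480 genes. Of the 10 regulators 6 rose: Birc3, Tnfaip3, Tnip1, Traf3, Traf4 and Birc2. Over all genes tested 7.76% rose and 3.25% fell. None of the 10 fell by edgeR, DESeq2 or limma-voom, and none was lower at an unadjusted edgeR p under 0.05, against 9.62% of all genes. All 10 log2 fold changes were above 0, as were 47.8% of those of all genes tested, and their median was 0.61 against -0.0087 over all genes. In 8 of the 10 genes every IL1B library lay above every vehicle library, which was so in 12.1% of all genes tested, and in none was every IL1B library below, against 8.83% of all genes.

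**Figure D1:**
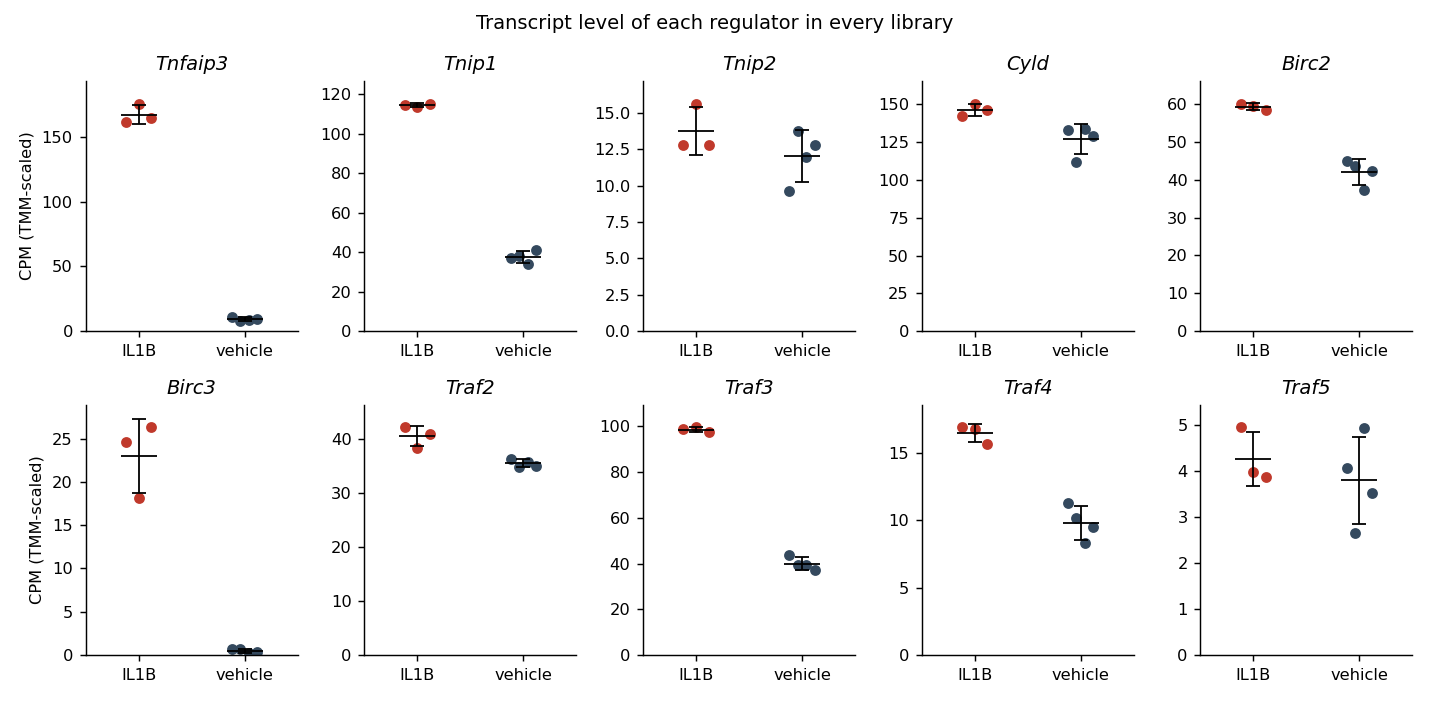
TMM-scaled CPM of each of the 10 regulators, with 1 panel per gene and its own vertical axis from 0, 1 point per library (3 IL1B, 4 vehicle) and bars for the mean and SD. Tnfaip3, Tnip1, Birc3 and Traf3 are far apart between groups, while the groups overlap for Tnip2 and Traf5.

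**Figure D2:**
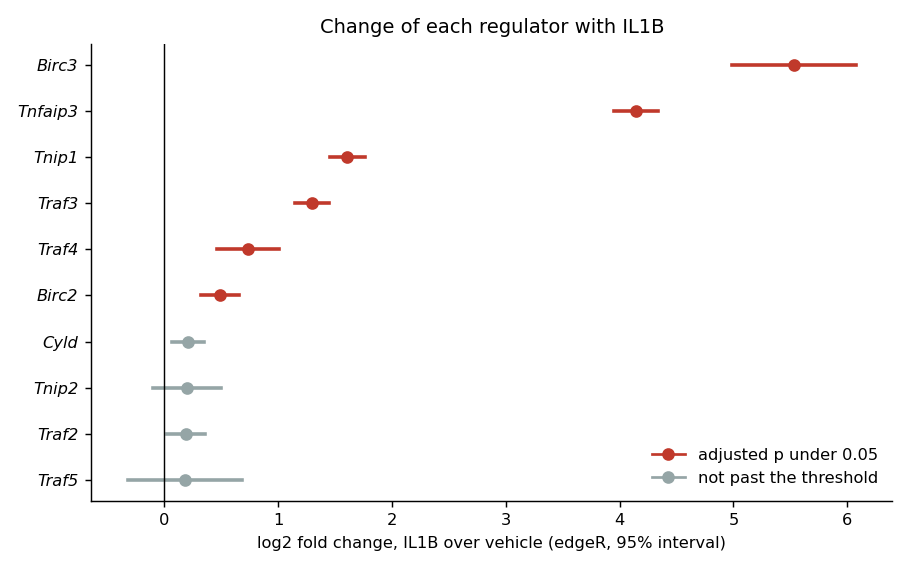
Log2 fold change of IL1B over vehicle for each regulator with its 95% interval from edgeR, in order of size. Birc3 (5.53) and Tnfaip3 (4.14) lie apart from the rest, and the 4 genes in grey did not pass the threshold. The Birc3 interval is narrower than counting error on its 12 vehicle counts would give.

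The editor A20 and the proteins that carry it to ubiquitin come first. Tnfaip3 encodes A20, which combines a deubiquitinase domain with zinc fingers that bind ubiquitin, and lies on chromosome 10 (19000910 to 19015657, minus strand, GRCm38). It had 161, 176 and 165 CPM in the IL1B libraries, against 11.1, 8.14, 8.64 and 9.66 CPM in the vehicle libraries. The lowest IL1B library was thus far above the highest vehicle library. The means were 167 ± 7.51 CPM with IL1B (SD, n = 3) and 9.37 ± 1.29 CPM with vehicle (SD, n = 4), a 17.7-fold increase (log2 fold change 4.14 with SE 0.09, 95% interval 3.95 to 4.33, edgeR adjusted p = 2.37e-17). By log2 fold change Tnfaip3 ranked 24 among the 12480 genes.

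Tnip1 encodes ABIN-1, which binds ubiquitin chains and A20 together, and lies on chromosome 11 (54910785 to 54962917). Its level was 115, 113 and 115 CPM in the IL1B libraries, against 37.1, 38.2, 33.8 and 41.04 CPM in the vehicle libraries. The IL1B values lie within 2 CPM of each other and far above vehicle: the log2 fold change was 1.61 (SE 0.07, 3.05-fold, edgeR adjusted p = 2.94e-12). Tnip2 encodes the relative ABIN-2, which also binds A20 and holds the kinase TPL2. It had 12.8, 15.6 and 12.8 CPM in the IL1B libraries, against 9.61, 13.8, 11.99 and 12.8 CPM in the vehicle libraries. The groups overlap, and Tnip2 did not pass the threshold (log2 fold change 0.20, 95% interval -0.10 to 0.50, edgeR adjusted p = 0.456).

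Cyld encodes a deubiquitinase that trims linear and lysine-linked chains, and is known as a tumour suppressor in human skin. Its level was 142, 150.3 and 146 CPM in the IL1B libraries, against 133, 112, 133 and 129 CPM in the vehicle libraries. All IL1B values lie above all vehicle values by a small margin, with the second vehicle library lowest. The log2 fold change was 0.21 (SE 0.07, 95% interval 0.06 to 0.35) and the edgeR adjusted p of 0.0595 missed the threshold. Without that vehicle library and the second IL1B library its adjusted p was 0.0993.

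The cIAP ligases share a gene cluster. Birc2, which encodes cIAP1 (chromosome 9, 7818227 to 7837064), and Birc3, which encodes cIAP2 (chromosome 9, 7848699 to 7873186), lie on the minus strand 11.6 kb apart. Both proteins are inhibitor-of-apoptosis family ligases that TRAF2 brings to TNF receptors. Birc3 had 169, 109 and 156 counts in the IL1B libraries, against 5, 4, 1 and 2 counts in the vehicle libraries. In CPM these were 24.6, 18.1 and 26.3 with IL1B, lowest in the second library, against 0.658, 0.626, 0.176 and 0.371 with vehicle. Vehicle libraries were thus at the edge of detection, and every IL1B library gave a clear signal, with a log2 fold change of 5.53 (SE 0.26, 46.3-fold, 95% interval 31.7-fold to 67.5-fold, edgeR adjusted p = 5.13e-12), and ranked 12 among all genes tested. The vehicle side of that fold rests on 12 counts in all. Counting error on so few exceeds the SE given, so the interval is too narrow.

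Birc2 was well expressed in both groups. It had 60.03, 59.5 and 58.4 CPM in the IL1B libraries, against 44.9, 43.7, 37.2 and 42.3 CPM in the vehicle libraries. The groups do not overlap, and the increase was modest (log2 fold change 0.49, SE 0.08, 1.41-fold, edgeR adjusted p = 2.03e-04).

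The TRAF adaptors differed among themselves. Traf3 encodes an adaptor that holds NIK for degradation and also serves antiviral signalling, and spans 101 kb of chromosome 12 (111166370 to 111267153). Its level was 98.8, 99.6 and 97.7 CPM in the IL1B libraries, against 43.8, 39.5, 39.5 and 37.1 CPM in the vehicle libraries. The increase was 2.46-fold, with no overlap and little spread (log2 fold change 1.30, SE 0.07, edgeR adjusted p = 8.98e-11). Traf4 encodes a TRAF known for roles in development and in IL-17 receptor signalling. It had 16.9, 16.8 and 15.7 CPM in the IL1B libraries, against 11.3, 10.2, 8.29 and 9.47 CPM in the vehicle libraries. The groups do not overlap, and the increase was 1.66-fold (edgeR adjusted p = 5.25e-04, with a log2 fold change of 0.73 and SE 0.13).

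Traf2 encodes the adaptor that recruits the cIAPs, and it did not pass the threshold. Its level was 42.1, 38.4 and 40.99 CPM in the IL1B libraries, against 36.3, 34.8, 35.8 and 34.9 CPM in the vehicle libraries. All IL1B values lie above all vehicle values, and the log2 fold change was 0.19 (SE 0.08, 95% interval 0.02 to 0.36, edgeR adjusted p = 0.153). Traf5 encodes a close relative of TRAF2 and was the least abundant of the 10 with IL1B, with 34, 24 and 23 counts in the IL1B libraries, against 31, 17, 28 and 19 counts in the vehicle libraries. Its groups overlap, and at this depth its 95% interval, 0.80-fold to 1.60-fold, leaves room for a change in either direction (edgeR adjusted p = 0.731).

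Levels can be compared roughly between genes per length, as CPM per kb of annotated exon (GENCODE M21). This length joins all annotated exons of a gene and can exceed its longest transcript. For Cyld it was 12.576 kb against 8022 bases, for Birc3 5.009 kb against 2909 and for Tnip1 3.539 kb against 2973. The order of genes at close levels may therefore change with the length used, and no other length was tried. With IL1B, Tnip1 was highest at 32.3 CPM per kb and Tnfaip3 next at 23.1, and their ranges over libraries do not overlap. Then came Traf3 (13.4), Birc2 (12.9), Cyld (11.6) and Traf2 (7.94 CPM per kb), each apart from its neighbours over the libraries on this scale. Tnip2 (4.77 to 5.82), Traf4 (4.77 to 5.13) and Birc3 (3.62 to 5.25 CPM per kb) overlap one another, and Traf5 was lowest at 0.936 CPM per kb. With vehicle the order was Tnip1 (10.6), Cyld (10.1), Birc2 (9.18), Traf2 (6.95), Traf3 (5.44), Tnip2 (4.49), Traf4 (2.98), Tnfaip3 (1.30), Traf5 (0.833) and Birc3 (0.0914 CPM per kb). The ranges of Tnip1, Cyld and Birc2 all overlap one another there, as do those of Traf3 and Tnip2. Tnfaip3 thus stood 2nd of the 10 with IL1B and 8th with vehicle.

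**Figure D3:**
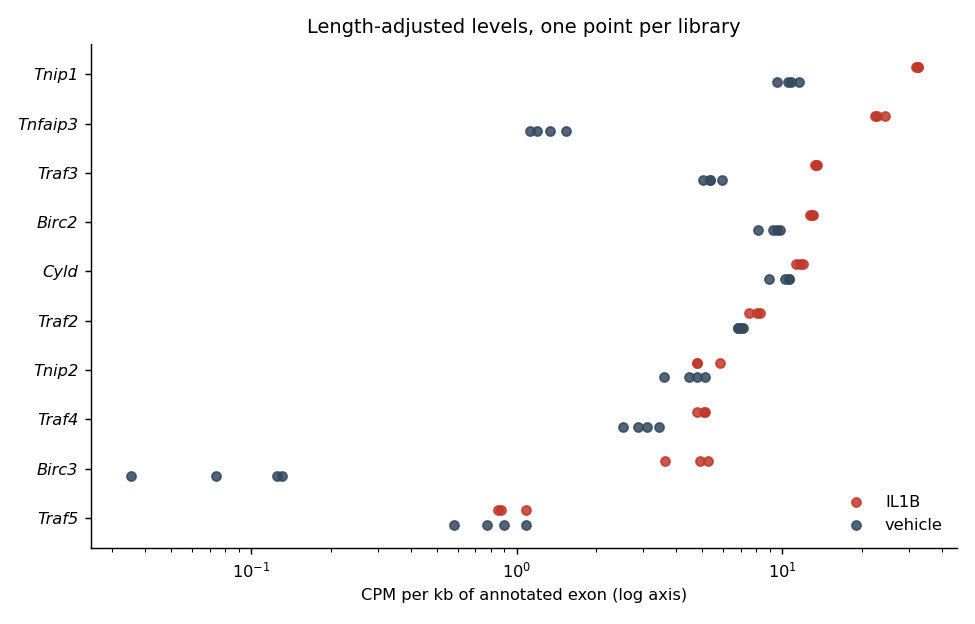
CPM per kb of annotated exon for each regulator, on a log axis, 1 point per library with IL1B above and vehicle below on each line. Tnip1 is highest in every IL1B library, overlaps Cyld and Birc2 with vehicle, and Tnfaip3 and Birc3 show the largest gaps between IL1B and vehicle points.

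On the same per-length scale the proportions between regulators within a library differed between groups. Birc3 made up 27.3%, 21.8% and 29.2% of the summed Birc2 and Birc3 level in the IL1B libraries, against 1.32%, 1.29%, 0.431% and 0.796% in the vehicle libraries. Tnfaip3 stood at 0.689, 0.760 and 0.702 of the Tnip1 level with IL1B, against 0.146, 0.104, 0.125 and 0.115 with vehicle. Cyld stood at 0.507, 0.491 and 0.5099 of the Tnfaip3 level in the IL1B libraries, against 6.92, 7.91, 8.87 and 7.66 times that level in the vehicle libraries, so the more abundant of these deubiquitinase transcripts was Tnfaip3 with IL1B and Cyld with vehicle. Traf3 stood at 1.63, 1.80 and 1.65 times the Traf2 level with IL1B, against 0.837, 0.788, 0.766 and 0.738 with vehicle.

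For 3 pairs of close relatives the count ratio within each library, which needs no scaling between libraries, was compared between groups with a two-sided exact permutation test over all 35 ways to assign the libraries to the groups, whose smallest p is 0.0286. The log2 ratio of Birc3 over Birc2 averaged -1.38 ± 0.29 with IL1B (SD, n = 3) and -6.39 ± 0.56 with vehicle (SD, n = 4). The difference was 5.01 (interval from the same test 3.996 to 6.756; exact permutation p = 0.0286, adjusted over 3 pairs 0.0429). The log2 ratio of Tnip1 over Tnip2 averaged 3.05 ± 0.18 with IL1B and 1.64 ± 0.22 with vehicle, a difference of 1.41 (interval 0.71 to 1.82; exact permutation p = 0.0286, adjusted 0.0429). In both pairs all 3 IL1B ratios lay above all 4 vehicle ratios, so the first gene of each increased relative to the second. The pairs were chosen with earlier results of these data known, so these p-values are descriptive. Birc3 also passed the filter through its IL1B libraries alone. With 1 library left out the smallest p of this test is 0.0667 (an IL1B library) or 0.1 (a vehicle library), and no pair could pass. The log2 ratio of Traf2 over Traf5 averaged 3.23 ± 0.15 with IL1B and 3.23 ± 0.35 with vehicle (exact permutation p = 1). Its interval, -1.03 to 0.91, does not show that Traf2 and Traf5 acted alike.

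**Figure D4:**
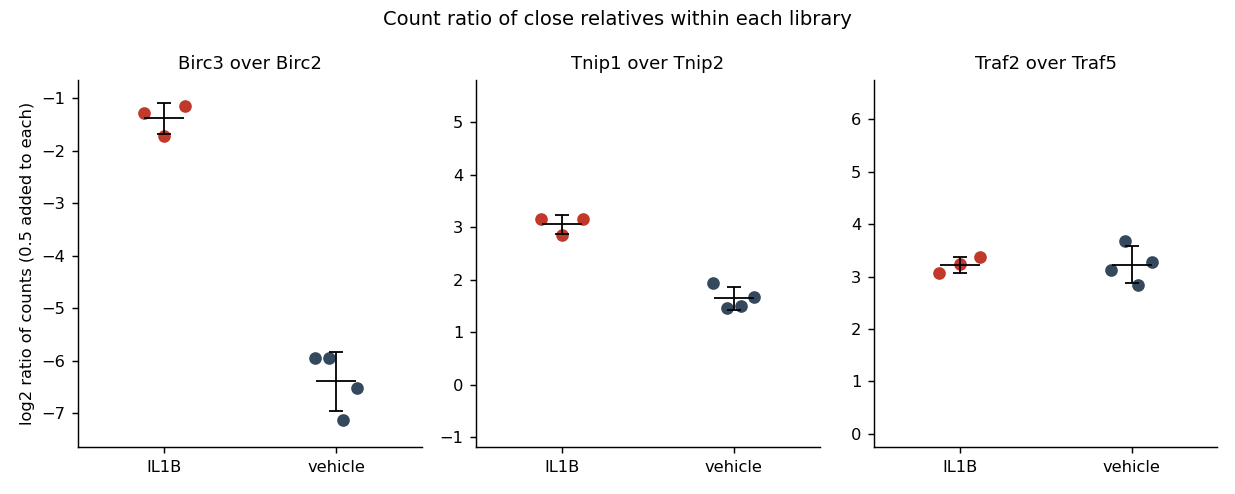
Log2 ratio of the counts of 2 related genes within each library (0.5 added to each count), 1 point per library with mean and SD, on axes of equal span. The ratios separate for Birc3 over Birc2 and for Tnip1 over Tnip2, and overlap for Traf2 over Traf5.

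Other genes of ubiquitin and TRAF signalling were taken in 9 lists, with Otud7b in more than one. Of their 103 genes 83 passed the filter, and 12 rose (14.5%, against 7.76% of all genes tested), with a median log2 fold change of 0.03. None fell by edgeR, DESeq2 or limma-voom, and 3 of the 83 were lower at an unadjusted edgeR p under 0.05, against 9.62% of all genes. Upper-quartile scaling, total-count scaling and leaving out the second vehicle library each gave 1 falling gene, and leaving out both second libraries gave 3. No test of a difference between these lists and the 10 regulators was run.

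The TRAF family is completed by Traf1 and Traf6. Traf6 encodes the ligase that carries the IL-1 receptor signal itself, and its level was 40.02 ± 2.80 CPM with IL1B (SD, n = 3) and 39.3 ± 3.11 CPM with vehicle (SD, n = 4; log2 fold change 0.03, SE 0.09, edgeR adjusted p = 0.886). Traf1, an NF-kB target in lymphocytes, had 2 counts over the IL1B libraries and 1 over the vehicle libraries and stayed below the filter. Of 7 tested genes in the list of other TRAFs and TRAF-binding proteins 1 rose, Tank, which encodes a TRAF-binding adaptor of the kinase TBK1, to 34.0 ± 5.27 CPM with IL1B, against 20.7 ± 0.553 CPM with vehicle (log2 fold change 0.72, SE 0.11, edgeR adjusted p = 7.49e-05).

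Among 6 genes of the linear ubiquitin machinery Spata2, which couples CYLD to the ligase of linear chains, rose to 33.6 ± 2.19 CPM with IL1B, against 19.0 ± 3.45 CPM with vehicle (1.77-fold, edgeR adjusted p = 4.79e-05). Of 12 ubiquitin-conjugating enzymes and A20 partners 2 rose, the ubiquitin-binding protein optineurin (Optn, 1.70-fold, edgeR adjusted p = 1.74e-06) and the conjugating enzyme gene Ube2d2 (1.13-fold, edgeR adjusted p = 0.0370). Tnip3, the third ABIN gene, stayed below the filter with 4 counts over the IL1B libraries and 2 over the vehicle libraries. Of 16 other deubiquitinases 1 rose, Otud4 (1.19-fold, edgeR adjusted p = 0.0377). Of 7 other IAPs and their antagonists 2 rose, the caspase inhibitor Xiap (1.20-fold, edgeR adjusted p = 0.0283) and Htra2, a mitochondrial protease that cuts IAPs (1.24-fold, edgeR adjusted p = 0.0349). These last 4 calls depended on single libraries and on the scaling, filter or tool. Ube2d2 no longer passed once vehicle library 1, 3 or 4 or any IL1B library was removed (edgeR adjusted p 0.0638 to 0.15), and Otud4 without vehicle library 1 or IL1B library 2 or 3 (0.0689 to 0.129). Xiap no longer passed without vehicle library 4 or any IL1B library (0.0589 to 0.0965), and Htra2 without vehicle library 3 or 4 or any IL1B library (0.0588 to 0.147). With all 7 libraries, total-count scaling ended all 4 calls (0.0585 to 0.0945), and upper-quartile scaling those of Ube2d2, Otud4 and Htra2 (0.0571 to 0.0834). Ube2d2 was also lost with no low-count filter (adjusted p = 0.0844), and Htra2 by DESeq2 (adjusted p = 0.0681).

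Among receptors that bind TRAFs and noncanonical NF-kB genes, Cd40, Tnfrsf12a, Nfkb2 and Relb rose more than Tank, Spata2 and Optn, and Ngfr rose less. Of 9 tested receptors 3 rose: Cd40 to 7.67 ± 0.415 CPM with IL1B, against 2.07 ± 0.741 CPM with vehicle (3.54-fold), Tnfrsf12a, the receptor of the cytokine TWEAK, to 42.01 ± 3.03 CPM, against 20.1 ± 0.769 CPM (2.09-fold), and the neurotrophin receptor Ngfr 1.45-fold (edgeR adjusted p = 1.3e-05, 4.38e-08 and 0.0036). Cd40 reached the filter's 1.64 CPM in 3 IL1B libraries and 2 vehicle libraries, so it passed only with its IL1B libraries and could not have been called lower. Another 9 receptors stayed below the filter. Of 5 noncanonical genes outside the 10 regulators 2 rose, the subunit genes Nfkb2 (11.2-fold) and Relb (10.8-fold). None of 10 ubiquitin readers and receptor complex adaptors and none of 12 other ubiquitin ligases passed in either direction by edgeR, DESeq2 or limma-voom with all 7 libraries and TMM scaling (DESeq2 with its own). At an unadjusted edgeR p under 0.05, 1 of the readers and adaptors was lower and none higher, and 1 of the ligases was higher and 1 lower, against 1623 higher and 1201 lower of the 12480 genes.

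**Figure D5:**
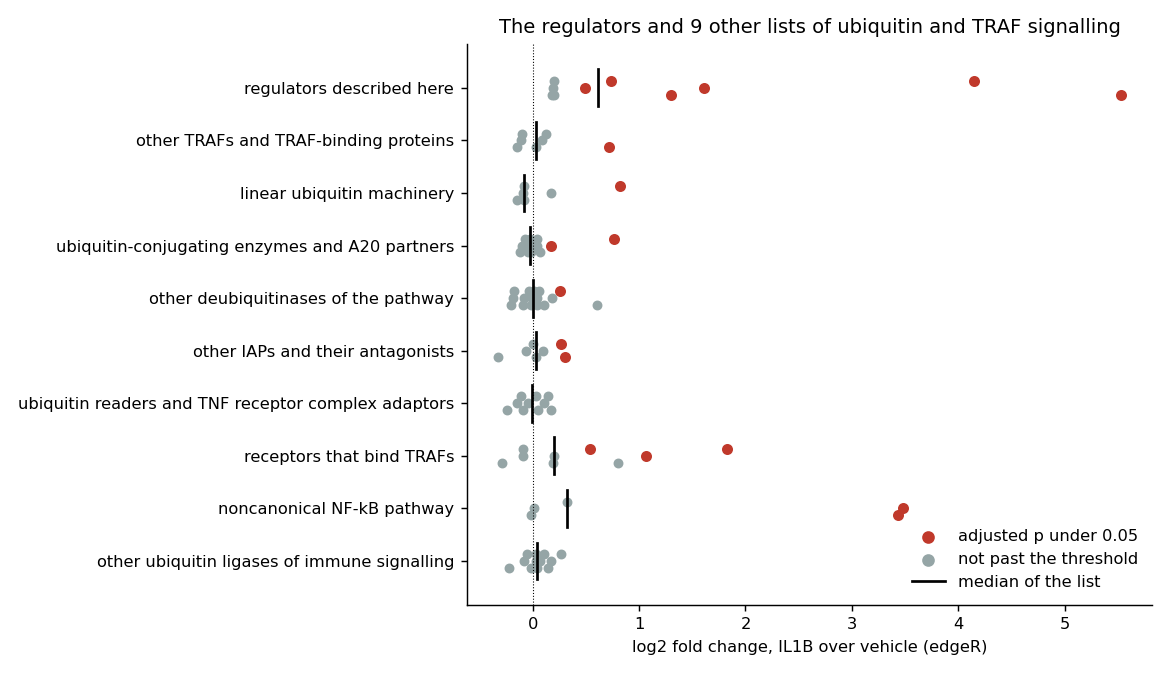
Log2 fold change of IL1B over vehicle for the 10 regulators (top line) and for the tested genes of 9 other lists, 1 point per gene, red where the edgeR adjusted p is under 0.05, with a bar at each list's median. The regulators' median is 0.61, and those of the other lists run from -0.08 to 0.33.

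Across the 7 libraries the genes most like Tnfaip3, by Euclidean distance of log2 CPM after the vehicle mean was subtracted, were Nfkbia (distance 0.46, 15.4-fold), Csf1 (0.51, 20.2-fold) and Nfkbie (0.85, 13.7-fold), out of 10901 genes of at least 5 CPM. Among the 3 most like Birc3 were Nfkbiz (0.94, 27.7-fold) and Stx11 (1.02, 44.1-fold). These distances are descriptions, since all genes share the same libraries and the size of the group difference sets most of the distance.

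Each regulator's longest transcript was searched in other annotated genes at 95% identity or more (blastn, stretches of at least 50 bases). Only likeness in the same direction was searched, so antisense copies were not covered. The largest share found was 6.19% for Birc3, followed by 4.20% for Traf2 and 1.40% for Cyld. None was found for the other 7, so Birc2 and Birc3 share no such stretch in that direction. Genes on the opposite strand overlap the spans of Tnip1, Cyld, Traf2, Traf3 and Traf5. Since no source used here gives the strand setting, reads of such partners cannot be told apart. The span of Traf5 also overlaps the microRNA gene Mir3473c and the processed pseudogene Gstp-ps on its own strand.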

How the data were processed

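The deposited table holds raw counts, whole numbers for each gene symbol in 7 columns. Per the submitters' processing notes, the study used the build mm10 and, among other tools, STAR, RSEM and R 4.1.0. No source used here says which tool made the counts, with which annotation or strand setting. Vehicle columns match the sample titles. The table numbers its IL1B columns 1, 2 and 3, and the titles number those samples 1, 3 and 4, so IL1B columns were assigned to the group only and are named by the table's numbers. Per the labels' protocols, cells grew with 15% serum and libraries were made from polyadenylated RNA.

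Counts were analysed with edgeR 4.0.16 in R 4.3.3 (TMM, filterByExpr, quasi-likelihood F test over all 7 libraries, no covariate, Benjamini-Hochberg over 12480 genes). SE was taken as the size of the log2 fold change divided by the root of the F value, and the 95% intervals were built from it. For Birc3 and Tnfaip3, with large changes from low vehicle counts, this SE lies below counting error. The alternatives tried were total-count, RLE and upper-quartile scaling, DESeq2 1.42.0, limma-voom (limma 3.58.1), no low-count filter, a filter of at least 1 CPM in at least 3 libraries, each library left out in turn, both second libraries left out, and, for ratios, a pseudocount of 2. At these depths 3 counts equal 0.399 to 0.562 counts per 1e6. Gene positions and exon lengths are from GENCODE M21 (GRCm38, the assembly of mm10), transcript likeness from blastn 2.17.0. Of each other list, up to 4 genes past the threshold with the smallest adjusted p were named, with Traf1 and Traf6 added. The members, the lists and the tests were chosen with earlier results of these data known. Some genes that the naming rule or the marker lists hold are not reported here.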

Additional observations from a re-analysis of the deposited data

How the results depend on the processing

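Each of the 10 regulators kept its direction and its side of the threshold in the 15 alternatives run, so 6 of them rose and none fell in each. The log2 fold change ran from 4.04 to 4.25 for Tnfaip3, 1.56 to 1.65 for Tnip1, 5.296 to 5.83 for Birc3, 0.44 to 0.53 for Birc2, 1.26 to 1.35 for Traf3 and 0.66 to 0.82 for Traf4. Of the 4 that did not pass, Cyld had adjusted p from 0.0533 to 0.168 and Traf2 from 0.0942 to 0.385. Over all genes tested 406 fell; with the second library of each group left out 676 fell, and with 1 library left out at a time 252 to 589 fell, the lowest without IL1B library 3. Total-count scaling gave 844 rising and 556 falling genes, against 968 and 406. Of the other pathway genes 12 rose, from 8 to 15 over the alternatives, and none fell, with 1 under upper-quartile and 1 under total-count scaling, 3 without both second libraries, and 0 to 1 with 1 library left out. Traf6 had values of -0.0019 with total-count scaling and from -0.024 up to 0.0835 with 1 library left out, with no call. The cause of these changes was not tested.

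With 1 library left out no pair ratio could pass, since the smallest exact permutation p is then 0.0667 or 0.1, and the difference ran from 4.76 to 5.18 for Birc3 over Birc2, from 1.35 to 1.51 for Tnip1 over Tnip2 and from -0.13 to 0.15 for Traf2 over Traf5. For that last pair it was -4e-04 with 0.5 added to each count and 0.0111 with a pseudocount of 2. No paired analysis was possible because the numbers of the IL1B columns differ from those of the titles. The widest errors were those of Birc3 (SE 0.26) and Traf5 (SE 0.24), the regulators with the fewest counts. The floor of 3 counts covers counting error only. The intervals draw on the spread between libraries, but for Birc3 and Tnfaip3 the SE lies below counting error.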
